A study of Saccharomyces cerevisiae with 12 samples.

Results

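The comparison described here set a budding yeast strain (Saccharomyces cerevisiae) with an FRB tag on NC2β, the product of NCB2, against its wild type, both without rapamycin. It used 4 of the 12 two-colour microarrays of the study, chosen by their labels: the 2 arrays of NCB2-FRB (strain YGP201) and the 2 of WT (strain HHY168). Each group held 2 cultures, a and b, begun from separate colonies in complete synthetic medium with 2% glucose. The p-values set a difference against the spread between the cultures of a group, pooled over the groups of all 12 arrays. The other groups used here were Mot1-FRB (strain YGP200) without rapamycin, and NCB2-FRB and WT kept for 60 min with rapamycin at 1 µg/ml, with 2 arrays in each. The 2 arrays of Mot1-FRB with the same rapamycin treatment entered only the shared estimate of error. Every array carried 1 culture and a common reference made from untreated wild-type RNA, which cancels between groups. In each group the culture was labelled with Cy3 on array a and with Cy5 on array b, so the spread between cultures also holds any dye effect.

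TATA-binding protein (TBP, the product of SPT15) starts the assembly of the RNA polymerase II machinery at promoters. NC2 is a dimer of NC2α (BUR6) and NC2β (NCB2) that binds TBP on DNA and hinders the entry of TFIIA and TFIIB, and Mot1 is an ATPase that takes TBP off DNA. The FRB domain lets rapamycin tie a tagged protein to an anchor fused to FKBP12, a method called anchor-away, for which HHY168 was built: its TOR1 allele resists rapamycin, FPR1 is deleted and the ribosomal protein Rpl13A carries FKBP12. All groups share this background. Without rapamycin nothing ties the tagged protein to the anchor, so these 4 arrays ask what the tagged strain looks like before depletion. The strains differ in the tag and in whatever came with making the tagged strain, and these cannot be told apart; the labels name neither the tagging cassette nor the number of clones.

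Values are the deposited log2 ratios of culture over reference, averaged over the 2 spots of each of 6388 gene probes. On the 4 arrays the median gene spot was 8.23 to 18.5 times its background, 95.6% to 99.4% of the probes were above the blank spots, and duplicate spots differed with an SD of 0.0415 to 0.0503 on the log2 scale. The 2 WT arrays spread around the reference, made of the same strain, with an SD over gene spots of 0.141 and 0.140, and the NCB2-FRB arrays with 0.148 and 0.131. The array of treated WT culture a was dim, at 1.70 times background, and it enters the estimate of the error.

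Untreated NCB2-FRB cells had almost the same relative transcript levels as WT cells on these arrays, with 2 clear exceptions. MED6, which encodes a subunit of the Mediator complex, rose 2.32-fold, and NCB2 itself fell by 0.67 on the log2 scale. These were the only genes of 6388 past an adjusted p of 0.05 in limma (Benjamini-Hochberg over all probes), 0.0313% of those tested, with 1 higher and 1 lower (0.0157% each). At an unadjusted p under 0.05, 248 probes passed (3.88%), 121 of them higher (1.89%) and 127 lower (1.99%). The median difference over all probes was 0.0011, which the normalization fixes, since it centres the ratios of each array near 0. A change shared by all genes would therefore not show. Around that centre, 98.9% of the probes lay within 0.25 of 0 on the log2 scale. Only 4 probes differed by 1.5-fold or more: MED6, NCB2 and the iron uptake genes FET3 and SIT1, which did not pass the test. The count of calls was 5 without either treated NCB2-FRB array, with FET3, FTR1 and FRE4 added, 4 without WT array a, and 1, MED6, in 3 of 4 planned runs from the scanner intensities, where NCB2, at −0.70 to −0.65, lost its call. In 1 of these, global loess, adding the letters a and b as a replicate block, a run chosen after seeing the data, gave 2 calls, with NCB2 at the same −0.65 and an adjusted p of 0.000273 in limma.

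**Figure D1:**
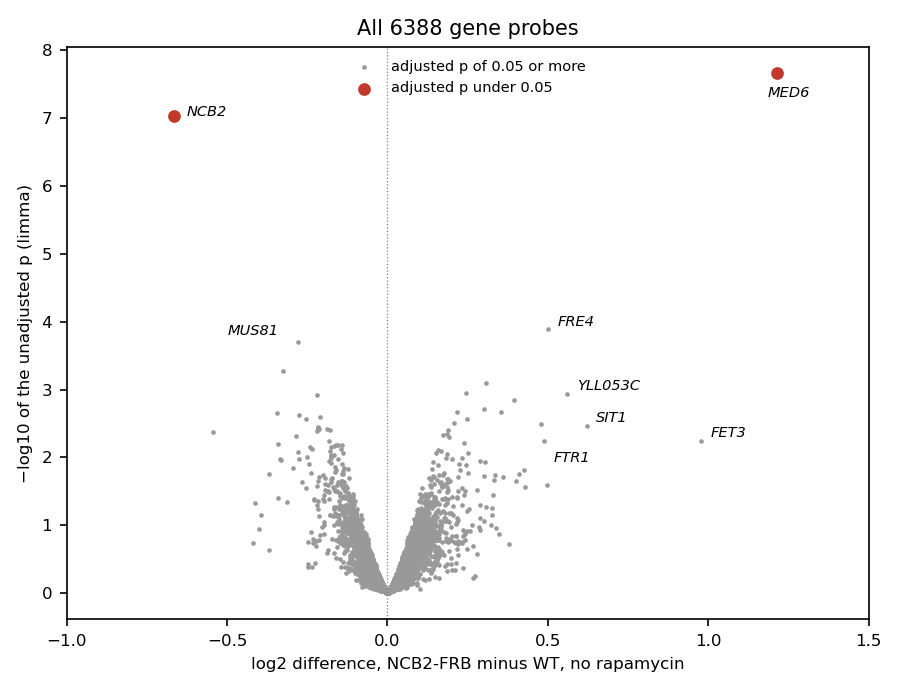
Log2 difference of untreated NCB2-FRB minus untreated WT (horizontal axis) against −log10 of the unadjusted limma p (vertical axis) for 6388 gene probes. MED6 at 1.22 and NCB2 at −0.67 stand apart from a narrow cloud whose 1st to 99th percentile runs from −0.20 to 0.23, and FET3 lies far to the right at 0.98, lower on the vertical axis than MED6 and NCB2 (unadjusted p = 0.00569).

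NCB2, the tagged gene (YDR397C), read −0.64 and −0.67 in the 2 NCB2-FRB cultures, against −0.01 and 0.03 in the 2 WT cultures. The groups lay far apart beside their own spread, with means of −0.65 ± 0.017 in NCB2-FRB and 0.011 ± 0.032 in WT (SD, n = 2 each). The spots themselves showed it: the NCB2 spots averaged 1686 and 1651 intensity units for the NCB2-FRB cultures on arrays whose reference channel gave 2631 and 2619, against 2269 and 1077 for the WT cultures beside references of 2287 and 1052. The difference was −0.67 (SE 0.050, 95% interval −0.78 to −0.55), an adjusted p of 0.000294 in limma. The signal of the NCB2 probe was thus 1.59-fold lower in NCB2-FRB, and its call depended on the processing, as given above. The labels say neither what the tagging replaced nor where the probe lies in the transcript, so the value does not check the tag.

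MED6 (YHR058C), a subunit of the Mediator head module, stood at 1.23 and 1.38 in NCB2-FRB, against 0.07 and 0.11 in WT. Its spots averaged 857 and 936 intensity units for the NCB2-FRB cultures beside reference signals of 366 and 360, against 302 and 212 units for the WT cultures beside references of 289 and 197. Both NCB2-FRB cultures were above both WT cultures, and the 2 spots of each array gave nearly the same ratio, 1.24 and 1.21 on NCB2-FRB array a and 1.38 on both spots of array b, against 0.066 and 0.065 on WT array a and 0.104 and 0.118 on WT array b. The difference was 1.22 (SE 0.079, 95% interval 1.04 to 1.39), with an adjusted p of 0.000137 in limma. The neighbours of MED6 in the reference gene table, looked at after its value was seen, did not share it: CPR2 differed by −0.04, FYV4 by −0.04 and VMA22 by −0.05, each with an adjusted p of 1 in limma.

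No difference like that of MED6 was seen in the other measured subunits of Mediator, the coactivator that bridges activators and RNA polymerase II. Besides MED6, 24 subunits were on the array and 0 passed the test, with differences from −0.12 to 0.06. CSE2 among them was above the blank spots on 0 of these 4 arrays, so its value shows nothing about its transcript, and MED4 was above them on 3. The lowest was MED7, a subunit of the middle module, at 0.06 and 0.05 in NCB2-FRB against 0.17 and 0.18 in WT, a difference of −0.12 (SE 0.052) with an adjusted p of 1 in limma. Its partners in the head module moved as little, with SRB4 at −0.01 and SRB5 at −0.03. The median of all 25 was −0.007, beside 0.0011 over all probes.

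**Figure D2:**
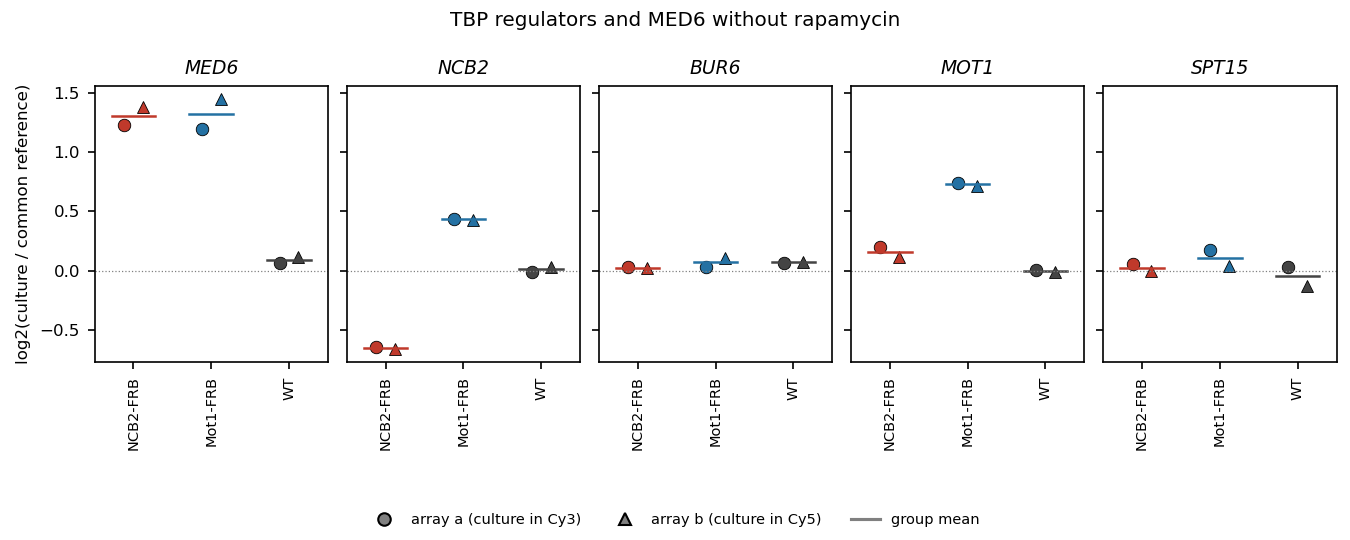
Log2(culture / common reference) of MED6 and 4 genes for TBP and its regulators in untreated NCB2-FRB, Mot1-FRB and WT cultures, 1 point per array (a, circles; b, triangles) with the group mean as a line. MED6 stands at 1.23 and 1.38 in NCB2-FRB, similarly high in Mot1-FRB, and at 0.07 and 0.11 in WT, while NCB2 is below WT in NCB2-FRB and above it in Mot1-FRB.

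The partners of NC2β differed little in level. BUR6, for the other NC2 subunit, read 0.03 on both NCB2-FRB arrays, against 0.06 and 0.08 on the WT arrays, a difference of −0.04 (95% interval −0.14 to 0.05, adjusted p = 1 in limma); its probe was above the blanks on 3 of these 4 arrays. SPT15, for TBP, read 0.05 and −0.00 in NCB2-FRB against 0.03 and −0.13 in WT, so that the groups overlapped, with a difference of 0.07 (95% interval −0.08 to 0.22). MOT1 read 0.20 and 0.12 in NCB2-FRB, against 0.01 and −0.01 in WT. Both tagged cultures were above both WT cultures. The difference of 0.16 (SE 0.072, adjusted p = 1 in limma) did not pass the test, though its unadjusted 95% interval, 0.00079 to 0.32, lay just above 0. The other 9 genes for TBP and factors that act on it directly, MOT1, BUR6 and SPT15 included, ranged from −0.10, for the SAGA subunit SPT3, to 0.16, for MOT1. Across the 31 genes for TFIID and the general initiation factors, differences ran from −0.12 to 0.09, and across 18 SAGA subunits from −0.10 to 0.14, with 0 past the test in either.

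The genes beside NCB2 on its chromosome did not pass the test either. RPT3, a proteasome ATPase, differed by −0.01, and SXM1, a nuclear transport factor, by 0.09. On the other side UTP5, an assembly factor of the small ribosomal subunit, differed by −0.01. HPT1, a purine salvage enzyme, read 0.13 and 0.29 in NCB2-FRB against 0.29 and 0.34 in WT, a difference of −0.10 (SE 0.057, adjusted p = 1 in limma). All 4 differences were small beside that of NCB2.

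Among 41 gene lists, 39 held no gene past the test, and the other 2 held 1 each, NCB2 and MED6. With only 2 of 6388 probes past the test (0.0313%), most lists had to hold none, so this count says little about the lists. List medians ran from −0.08 to 0.12, and 29 lay within 0.05 of 0. For reading these lists, 18.2% of all probes had both NCB2-FRB arrays above both WT arrays, and 17.8% had both below.

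**Figure D3:**
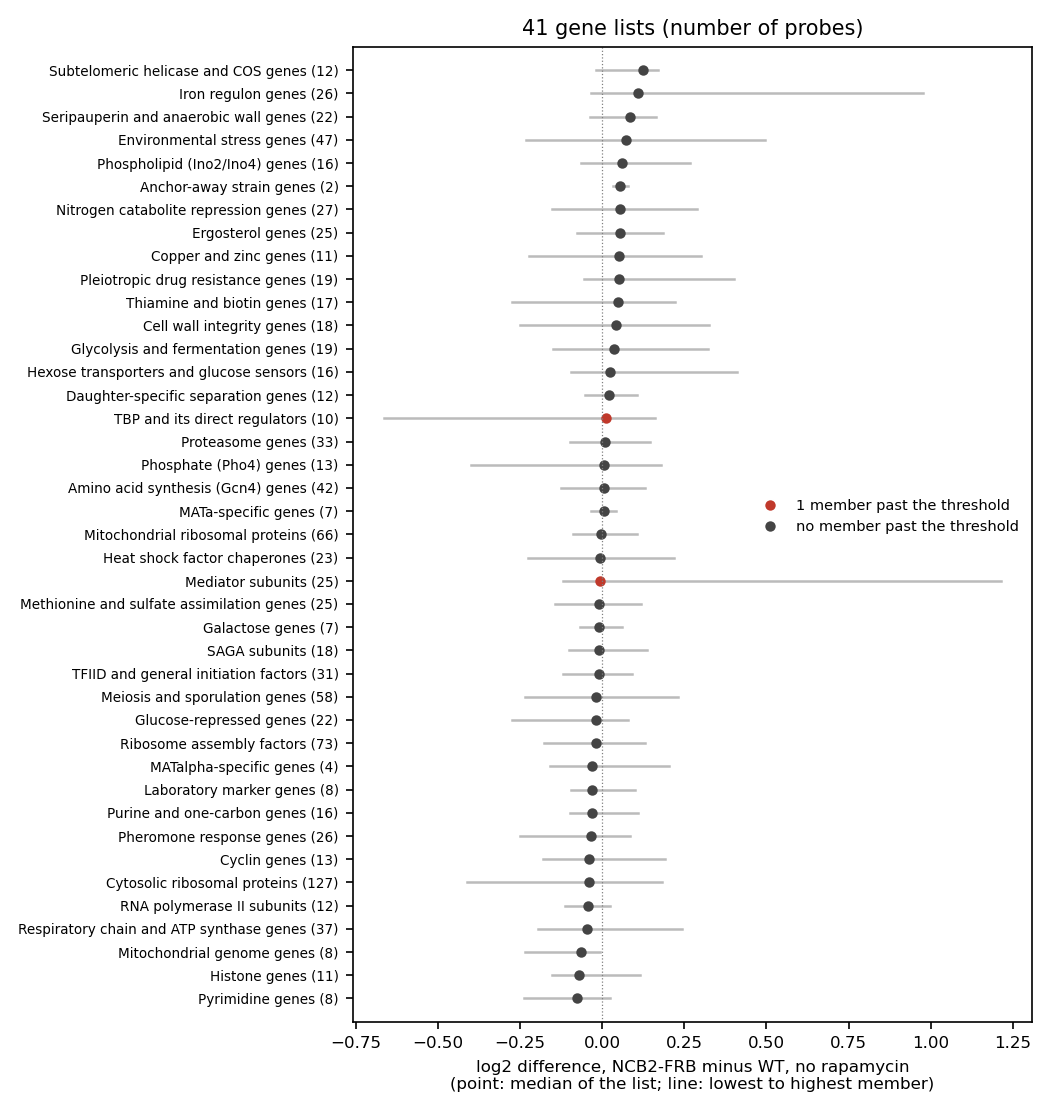
Median log2 difference of untreated NCB2-FRB minus untreated WT in 41 gene lists (points), with the lowest and highest member (lines) and the number of probes in brackets. Medians lie between −0.08 and 0.12, and the 2 long lines away from 0 are those of NCB2 in its list, at −0.67, and of MED6 among Mediator subunits, at 1.22, with FET3 at 0.98 in the iron list.

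The iron regulon, the genes that Aft1 and Aft2 turn on when iron is scarce, held the largest uncalled differences. Of its 26 genes 0 passed the adjusted test. At an unadjusted p under 0.05 in limma 9 passed, all of them higher in NCB2-FRB, where 1.89% of all probes passed as higher. Both NCB2-FRB arrays lay above both WT arrays for 18 (69.2%), beside 18.2% of all probes. None of the 26 had both below, beside 17.8% of all probes. The list's median was 0.108, beside 0.0011 over all probes, and 6 genes differed by more than 0.25. The iron genes given below one by one were picked after their values were seen.

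FET3 encodes the multicopper oxidase of high-affinity iron uptake. It read 0.93 and 0.92 in NCB2-FRB, against −0.04 and −0.06 in WT, and its spots averaged 2045 and 1871 intensity units for the NCB2-FRB cultures beside references of 1072 and 990, against 829 and 456 for the WT cultures beside references of 850 and 476. The 2 cultures of each strain lay within 0.03 of each other, and the difference was 0.98, a 1.97-fold higher level. The SE of 0.28 holds the spread of other groups: in the treated NCB2-FRB cultures FET3 read 0.10 on array a and 1.31 on array b, and all 12 arrays share 1 estimate of spread. The adjusted p was 0.999 in limma over all arrays, 0.00116 with only the 4 arrays compared and 0.00305 without either of the treated NCB2-FRB arrays.

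FTR1, the iron permease that works with Fet3, behaved in the same manner. It read 0.65 and 0.67 in NCB2-FRB, against 0.18 and 0.17 in WT, a difference of 0.49 (SE 0.14) with an adjusted p of 0.999 in limma over all arrays, 0.0253 with only the 4 arrays compared and 0.042 without either treated NCB2-FRB array. SIT1, a transporter of iron bound to siderophores, read 0.53 and 0.56 in NCB2-FRB, against −0.08 and −0.07 in WT, a difference of 0.62 (SE 0.16), with adjusted p-values of 0.889 over all arrays and 0.0073 with only the 4 arrays compared. In the treated NCB2-FRB cultures both genes were lower on array a than on array b, with FTR1 at 0.84 and 1.41 and SIT1 at 0.39 and 0.93. Whether these treated cultures are in the fit decides the calls of FET3 and FTR1, and SIT1 had an adjusted p of 0.29 without either of them.

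Of 6 genes of the ferric reductase family in the list, which reduce iron ahead of uptake, FRE4, FRE1 and FRE6 had both NCB2-FRB arrays above both WT arrays, and none passed the test. FRE4 read 0.49 and 0.66 in NCB2-FRB, against 0.08 and 0.06 in WT, a difference of 0.50 (SE 0.084) with an adjusted p of 0.273 in limma, the smallest after MED6 and NCB2, 0.151 with only the 4 arrays compared and 0.042 without either treated NCB2-FRB array. FRE1, the main cell surface reductase, read 0.28 and 0.53 in NCB2-FRB, against 0.09 and −0.07 in WT, a difference of 0.39 (adjusted p = 0.889). SMF3, a metal transporter of the vacuole, differed by 0.33, and FRE6, a reductase of the vacuole, by 0.24. The arrays of the 2 strains overlapped for FRE2, FRE3 and FRE5, with differences of 0.04, 0.07 and −0.03. The cell wall mannoproteins FIT1, FIT2 and FIT3, which hold siderophores at the surface, differed by 0.03, −0.02 and 0.01, and the siderophore transporter ARN2 by −0.01. The list therefore held 6 genes more than 0.25 above WT and 20 of 26 within 0.25, where 98.9% of all probes lay. Those 20 ran from the genes near 0 just named up to FRE6, and ATX1, ENB1 and COT1 among them differed by 0.18, 0.15 and 0.13.

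**Figure D4:**
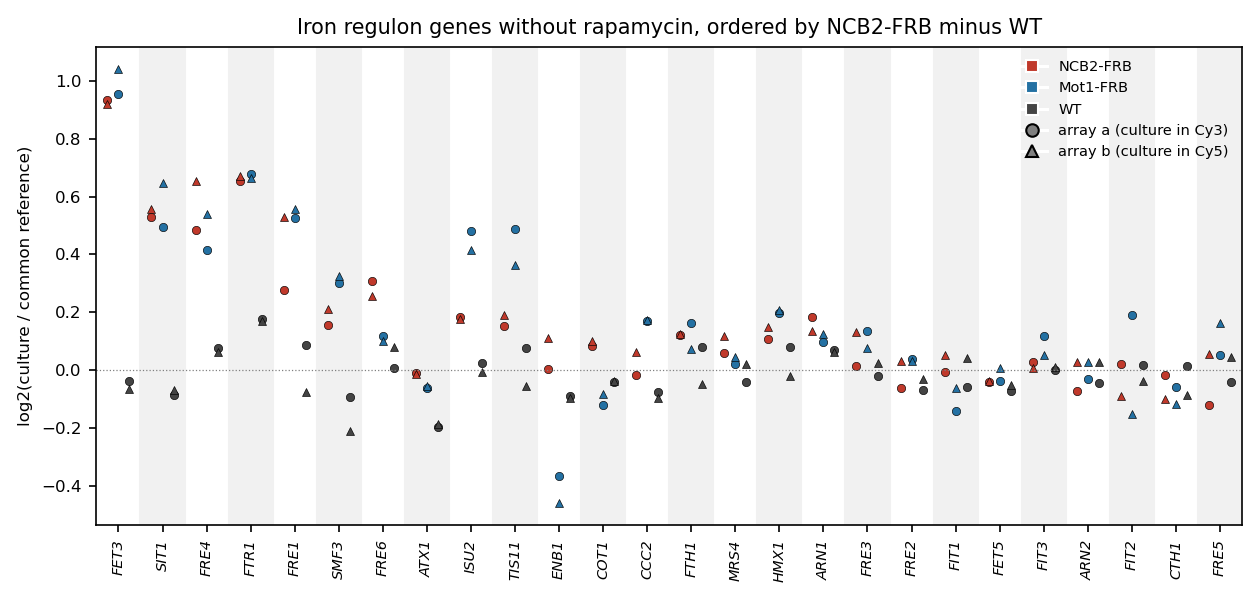
Log2(culture / common reference) of the 26 iron regulon genes in untreated NCB2-FRB, Mot1-FRB and WT, 1 point per array (a, circles; b, triangles), ordered by the NCB2-FRB minus WT difference. FET3, SIT1, FRE4 and FTR1 are clearly above WT in both tagged strains, and the right-hand genes overlap.

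Outside the iron genes, some uncalled differences were about as large as those of FTR1 and FRE4. The genes named in this paragraph were picked after their values were seen. YLL053C, a subtelomeric aquaporin-like reading frame, read 0.61 and 0.98 in NCB2-FRB against 0.09 and 0.38 in WT, a difference of 0.56 with an adjusted p of 0.841. GPD1, for glycerol synthesis, read −0.37 and −0.19 in NCB2-FRB against −0.81 and −0.75 in WT, a difference of 0.50 with an adjusted p of 1. On the low side AI1, a mitochondrial intron reading frame, read −1.01 and −0.63 in NCB2-FRB against −0.27 and −0.28 in WT, a difference of −0.55 with an adjusted p of 0.911. MUS81, a subunit of a structure-selective DNA endonuclease, read −0.33 and −0.29 in NCB2-FRB against −0.05 and −0.01 in WT, a difference of −0.28 with an adjusted p of 0.315. All these p-values are from limma.

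Environmental stress genes, which yeast switches on together under many insults, had a median difference of 0.074. Of these, 17 of 47 (36.2%) had both NCB2-FRB arrays above both WT arrays, and 4 (8.51%) had both below. Over all probes the shares were 18.2% above and 17.8% below. The arrays' own medians for this list were −0.10 and −0.20 in NCB2-FRB and −0.16 and −0.28 in WT. The groups overlapped, though NCB2-FRB was above WT among the arrays of each letter, which share a dye orientation. Cytosolic ribosomal protein genes had a median of −0.040, with 35 of 127 (27.6%) lower without overlap and 5 (3.94%) higher, with 99 of the 127 saturated on at least 1 of these 4 arrays. Ribosome assembly factors had one of −0.020, with 23 of 73 (31.5%) lower and 5 (6.85%) higher. None of these genes passed the test in either direction.

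Genes that differ between strain backgrounds read close to WT. The 7 genes expressed in MATa cells differed by −0.03 to 0.04, and the 4 of MATα cells by −0.16 to 0.20, and 0 of either passed the test. The 0.20 was that of MF(ALPHA)1 (SE 0.26), whose spots were saturated on 2 of these 4 arrays. TOR1 read −0.14 and −0.15 in NCB2-FRB against −0.19 and −0.17 in WT, and RPL13A, the anchor, read 0.04 and 0.12 in NCB2-FRB against −0.03 and 0.03 in WT, and was saturated on 1 of these 4 arrays. The 8 laboratory marker genes, URA3, LEU2, HIS3, TRP1 and ADE2 among them, differed by −0.10 to 0.10. FPR1 was not analysed here.

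The untreated Mot1-FRB strain, which has an FRB tag on another TBP regulator, shows which of these differences were shared by a second tagged strain. The MED6 spots gave 1.24 and 1.21 on NCB2-FRB array a and 1.38 on both spots of array b, against 1.19 and 1.21 on Mot1-FRB array a and 1.43 and 1.48 on array b, and NCB2-FRB minus Mot1-FRB was −0.02 (95% interval −0.20 to 0.15, adjusted p = 0.945 in limma). Mot1-FRB minus WT for MED6, which uses the same WT arrays, was 1.24. NCB2 went the other way: it read −0.64 and −0.67 in NCB2-FRB, against 0.43 in both Mot1-FRB cultures, and NCB2-FRB minus Mot1-FRB was −1.09 (SE 0.050, adjusted p = 4.54e-06 in limma). MOT1 likewise was lower in NCB2-FRB than in Mot1-FRB, at 0.20 and 0.12 against 0.74 and 0.72, a difference of −0.57 (adjusted p = 0.00384). MOT1 in Mot1-FRB was 0.73 above the same WT arrays (adjusted p = 0.000465), whereas NCB2 in NCB2-FRB was below them.

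Iron uptake genes were near each other in the tagged strains, within wide intervals. NCB2-FRB minus Mot1-FRB was −0.07 for FET3 (95% interval −0.69 to 0.55), −0.03 for SIT1 (−0.39 to 0.34), −0.01 for FTR1 (−0.32 to 0.30) and 0.09 for FRE4 (−0.09 to 0.28), and no adjusted p was under 0.72. The siderophore transporter ENB1 was higher in NCB2-FRB, at 0.00 and 0.11, against −0.37 and −0.46 in Mot1-FRB, a difference of 0.47 (adjusted p = 0.00492 in limma), and the iron-sulphur scaffold ISU2 was lower, with a difference of −0.27 (adjusted p = 0.0222). The list's median was 0.108 in NCB2-FRB and 0.103 in Mot1-FRB, each against the same WT arrays.

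Over all probes 122 passed the test between the tagged strains (1.91%), 21 higher in NCB2-FRB (0.329%) and 101 lower (1.58%), against 2 (0.0313%) between NCB2-FRB and WT. Mot1-FRB against WT, on the same WT arrays, gave 269 (4.21%). Without any 1 of the arrays compared these counts were 28 to 49 between the tagged strains, 55 to 87 for Mot1-FRB against WT, and 78 between the tagged strains without either WT array. The lowest in NCB2-FRB were the small heat shock protein gene HSP26, at 0.34 and 0.00 in NCB2-FRB against 1.59 and 2.01 in Mot1-FRB, YIR042C, at −0.39 and −0.36 against 0.97 and 0.89, and WSC4, a wall stress sensor relative, at 0.08 and 0.06 against 0.91 and 1.00. The NAD synthesis gene BNA4 and NCB2 completed the 5 lowest. The highest were the vitamin B6 genes SNO1 and SNZ1, with differences of 0.69 and 0.55, the mating-type endonuclease gene HO, at 0.06 and −0.03 in NCB2-FRB against −0.54 in both Mot1-FRB cultures, GDS1 and SEN54. Of these genes, NCB2 alone had also passed the test against WT in NCB2-FRB.

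The strains were also compared with rapamycin, on 4 arrays that enter the untreated difference through the shared estimate of error and not through its group means. There, depletion of the tagged protein and the strain cannot be told apart. Treated WT array a was the dim one, with 71.3% of its probes above the blanks. Its NCB2 spots averaged 92 intensity units for the culture and its MED6 spots 81, against 1888 and 316 on treated WT array b. The differences and counts with rapamycin therefore rest in part on a dim array. MED6 read 1.59 and 1.58 in treated NCB2-FRB, against 0.06 and 0.05 in treated WT, a difference of 1.53 (SE 0.079, adjusted p = 2.51e-07 in limma). NCB2 read 0.16 and 0.07 in treated NCB2-FRB, against 0.00 and −0.01 in treated WT, a difference of 0.12 (adjusted p = 0.0641), so that the deficit seen without rapamycin was not there with it. The change of the strain difference with rapamycin was 0.78 for NCB2 (adjusted p = 2.41e-05) and 0.31 for MED6 (adjusted p = 0.0454). FET3, FTR1 and SIT1 differed by 0.92, 1.00 and 0.81 with rapamycin, against 0.98, 0.49 and 0.62 without it, and these changes did not pass the test. For scale, 3716 probes (58.2%) differed between the treated strains, beside the 2 without rapamycin, and the difference between strains changed with rapamycin for 2700 (42.3%).

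**Figure D5:**
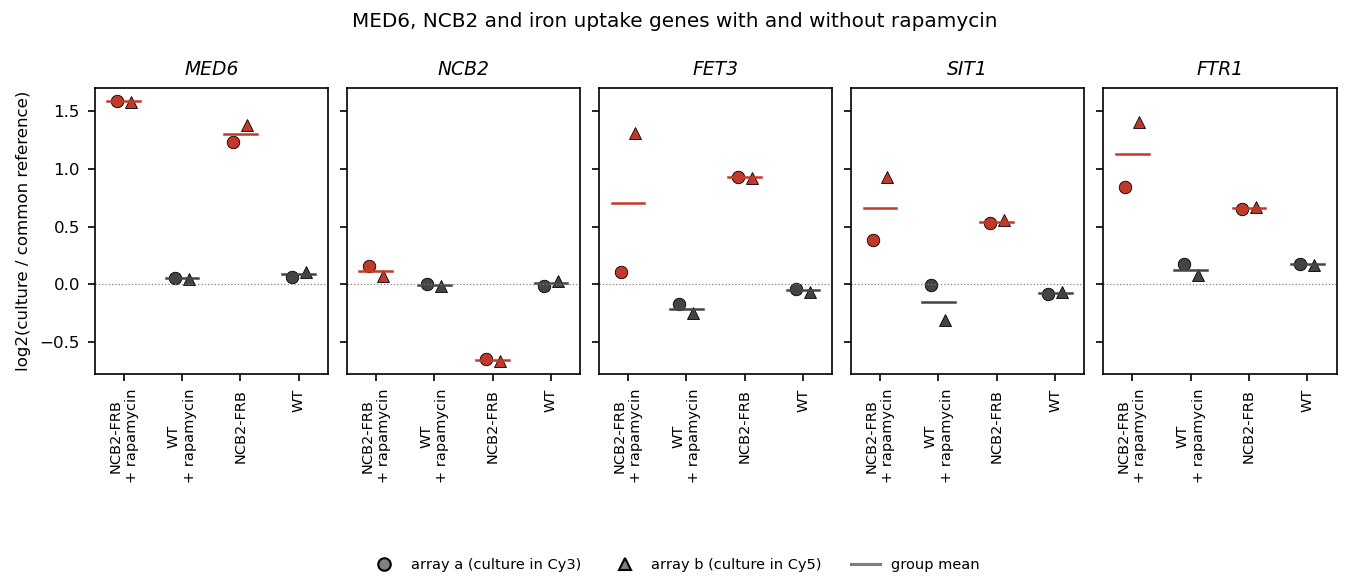
Log2(culture / common reference) of MED6, NCB2 and 3 iron uptake genes in NCB2-FRB and WT, with rapamycin (left pair of each panel) and without (right pair), 1 point per array (a, circles; b, triangles) and the group mean as a line. MED6 is 1.23 or higher in each NCB2-FRB culture, NCB2 is low in NCB2-FRB without rapamycin only, and FET3 is split between the 2 treated NCB2-FRB cultures at 0.10 and 1.31.

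For a typical gene taken alone, a difference had a small SE. The median SE of a difference was 0.062, which gives a median 95% half-width of 0.138 on the log2 scale, a 1.10-fold change, before any adjustment for 6388 tests. The adjusted test asked for larger differences. FRE4 at 0.50 and MUS81 at −0.28 did not pass it, with adjusted p-values of 0.273 and 0.315 in limma. The difference between a NCB2-FRB array and the WT array with the same letter had a correlation across all 6388 probes of 0.186 between letters a and b, and 0.164 without MED6 and NCB2. With the letters crossed it was −0.034 and −0.058. Genes are not independent replicates, and arrays with the same letter share a dye orientation, so these values describe the arrays only.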

How the data were processed

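Each array was scanned with an Agilent G2565BA scanner and read with Imagene (version not given in the sources used here), per the labels' protocols. The authors normalized the intensities of both channels by LOESS within each print tip (span 0.4, gene probes, no background subtraction), left absent or nearly saturated spots out of the curve and then corrected gene-specific dye bias, per the same protocols. The main values are the deposited log2 ratios of culture over reference, which equal the log2 ratio of the deposited normalized intensity values within 4.99e-06. No label names a genome build, so no coordinates are given.

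The 2 spots of each of 6388 gene probes were averaged. Of these probes 5326 had a symbol. In R 4.3.3 with limma 3.58.1, 1 mean per group was fitted over all 12 arrays (two-sided, 6 residual and 4.25 prior degrees of freedom, Benjamini-Hochberg over 6388 probes, threshold 0.05). The contrasts were tested on simulated data first. Figures used Python 3.11.15 and matplotlib 3.10.9. A probe was above the blanks where its signal exceeded percentile 95 of the blank spots. Intensities limit precision; arrays give no counts.

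The genes compared and the 41 lists were chosen with earlier results of these data known. Genes were named where they were NCB2, BUR6, MOT1, SPT15 or the 2 annotated genes on either side of NCB2, where they passed the threshold with non-overlapping groups (up to 15 higher and 15 lower, and up to 5 of each in the other comparisons), or as strain checks. Others are said to be picked after their values were seen. Alternatives used the deposited scanner intensities (normexp, offset 50, then loess or median centring), fewer arrays, the letters as a replicate block, a filter on dim probes, another variance prior, each array left out, and minimum folds of 1.5 and 1.2. No sequence or promoter was analysed here.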

Additional observations from a re-analysis of the deposited data

Results flagged for a closer look

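For the genes in this paragraph and the next, the difference of NCB2-FRB minus WT with rapamycin departed from the same difference without it, by limma's test of that change, which 42.3% of all probes passed. Treated WT array a, which enters each of these changes, was dim, at 1.70 times background. NCB2 changed by 0.78 on the log2 scale, with 0.12 with rapamycin against −0.67 without (adjusted p = 2.41e-05). MED6 changed by 0.31, with 1.53 with rapamycin against 1.22 without (adjusted p = 0.0454). Its neighbours CPR2 and FYV4 changed by −0.55 and 0.62, and the Mediator subunits MED7, SRB4 and SRB5 by −0.48, −0.40 and 0.27. Among the other TBP regulators, MOT1 changed by 0.89, BUR6 by 0.29 and SPT15 by 0.41. Beside NCB2 on its chromosome, HPT1 changed by 0.69, SXM1 by −0.55 and UTP5 by −0.32. Among the iron genes, ISU2 changed by 1.23, with 1.40 with rapamycin against 0.17 without, SMF3 by 0.97, FRE1 by 0.76 and ENB1 by −0.52. GPD1 changed by 1.68, with 2.18 with rapamycin against 0.50 without, and MUS81 by 0.26.

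Strain-check genes did so as well, though none passed the test between the untreated strains. The pheromone gene MF(ALPHA)2 changed by −2.79 and the agglutinin gene SAG1 by −1.35, both genes of MATα cells, and the protease gene BAR1 of MATa cells by −0.20. The anchor gene RPL13A changed by −0.54. Of the laboratory marker genes, LEU2 changed by 0.83, LYS2 by 0.43, HIS3 by 0.36, CAN1 by 0.34 and TRP1 by −0.44.

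Without rapamycin, some genes differed between the tagged strains by limma's test of NCB2-FRB minus Mot1-FRB, which 1.91% of all probes passed. NCB2 differed by −1.09, with −0.67 for NCB2-FRB minus WT and 0.42 for Mot1-FRB minus WT, and MOT1 by −0.57, with 0.16 for NCB2-FRB minus WT and 0.73 for Mot1-FRB minus WT. HPT1 differed by −0.41, the pheromone receptor gene STE3 by −0.46, ISU2 by −0.27, ENB1 by 0.47 and MUS81 by −0.37. The genes named for this comparison differed by −1.63 (HSP26), −1.31 (YIR042C), −0.89 (BNA4 and WSC4), 0.47 (SEN54), 0.52 (GDS1), 0.55 (HO and SNZ1) and 0.69 (SNO1).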

How the results depend on the processing

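MED6 was called in all 24 alternatives run for NCB2-FRB against WT without rapamycin, and its difference was 1.14 to 1.29 with each array left out and 1.21 to 1.30 otherwise, with adjusted p-values from 1.16e-05 to 0.045. NCB2 kept its sign in all of them, at −0.69 to −0.64 with each array left out. Its adjusted p was 1 with scanner intensities and global loess (−0.65), 0.284 with median centring (−0.70) and 1 with no background correction (−0.65), so that 1 probe was called in each of these 3 runs. The count was 5 with only the 4 arrays compared or only the 6 untreated arrays, where FET3, FTR1 and SIT1 were added, and 2 to 5 with each array left out. The 5 came without either treated NCB2-FRB array, where FET3, FTR1 and FRE4 were added; it was 4 without WT array a, where SIR2 and a probe without a symbol were added, and ALG14 and SPT14 were each called in 1 other run, ALG14 without NCB2-FRB array b and SPT14 without array a. SIT1 was called in none of the 12 runs that left out 1 array. The median of the iron list stayed above 0 in every run, from 0.0973 to 0.164.

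In NCB2-FRB against Mot1-FRB, 122 calls became 11 with scanner intensities and global loess, 40 with print-tip loess, 1 with median centring, 9 with no background correction, 276 with only the untreated arrays, 62 with an intensity trend, 8 against a 1.2-fold minimum and 17 at 1.5-fold or more. In Mot1-FRB against WT, 269 calls became 62, 71, 2 and 57 in the same 4 scanner runs, 501 with only the untreated arrays, 19 against the 1.2-fold minimum and 44 at 1.5-fold or more. With each array left out the counts ran from 28 (without Mot1-FRB array b) to 178 and from 55 (without WT array b) to 360. With rapamycin, 3716 calls became 739 with median centring, 1381 against the 1.2-fold minimum and 896 at 1.5-fold or more, and the change with rapamycin (2700) became 1499, 1762, 27 and 1423 in the scanner runs, 904 and 791. The causes were not tested.

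The letters a and b coincide with the dye orientation, and the labels do not say whether they share a day or batch: over 15 pairs of groups, same-letter departures from the group means correlated across genes at 0.011 to 0.55, and 6 pairs were under 0.1. With the letters as a replicate block, 2 probes were called in NCB2-FRB against WT, the same 2 genes, and 190 in NCB2-FRB against Mot1-FRB. Chosen after seeing the data, the block with the 4 arrays alone gave 9. They were MED6 and NCB2, FET3, SIT1, FTR1 and FRE4 of the iron list, and YLL053C, GPD1 and AQY2 outside it. With scanner intensities and global loess the block, also chosen after seeing the data, gave 2. It gave 198 in NCB2-FRB against Mot1-FRB and 448 in Mot1-FRB against WT. The sizes of differences in single genes are limited by 2 arrays a group. Promoter motifs were not run.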

Other observations

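Several small gene lists leaned one way in untreated NCB2-FRB with no member past the test. Subtelomeric helicase and COS genes had a median difference of 0.123, with 6 of 12 (50.0%) above WT without overlap, against 18.2% of all probes. Pyrimidine synthesis genes had a median of −0.078 and 5 of 8 below WT, genes of the mitochondrial genome one of −0.065 and also 5 of 8 below, and histone genes one of −0.071 with 6 of 11 below, against 17.8% of all probes. Genes of the respiratory chain and ATP synthase had 15 of 37 (40.5%) below WT and a median of −0.046. In the mitochondrial list COB was above the blank spots on 0 of the 4 arrays, and 2 of the 11 histone genes were saturated on at least 1. Seripauperin and anaerobic cell wall genes, by contrast, had 4 of 22 (18.2%) above WT without overlap, the same share as all probes, with a median of 0.084.

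Array medians of 2 lists are given for the 3 untreated strains, with no test of the lists. Nitrogen catabolite repression genes had array medians of 0.042 and 0.051 in NCB2-FRB, 0.330 and 0.302 in Mot1-FRB and −0.030 and 0.020 in WT. In NCB2-FRB 10 of 27 (37.0%) were above WT without overlap, against 18.2% of all probes. Stress genes had array medians of −0.10 and −0.20 in NCB2-FRB, 0.044 and 0.141 in Mot1-FRB and −0.16 and −0.28 in WT.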
